A study of Sus scrofa with 23 samples.

Results

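Backfat gene expression was compared between 7 pigs fed without corn dried distillers grains with solubles (cDDGS), the residue of maize left after ethanol production, and 16 pigs fed with it. All 23 pigs of the series entered the comparison and were chosen by the diet in their labels. Group I (-DDGS+rapeseed oil, 4 females and 3 males) was the control arm. The cDDGS arm merged group II (+DDGS+rapeseed oil, 6 pigs), group III (+DDGS+beeftallow, 5 pigs) and group IV (+DDGS+coconut oil, 5 pigs), in all 8 females and 8 males. The pigs were crossbred fatteners penned singly, and each library came from 1 pig. Per the study's methods the RNA was partly degraded, and a library kit made for such RNA was used. Groups I and II differed in cDDGS with the same added oil. Per the study, the feed of group I also held less crude fat and fiber and more starch than the cDDGS feeds. Its share of linoleic acid was below that of groups II and III and above that of group IV. These differences cannot be told apart from cDDGS itself. No pigs received beef tallow or coconut oil without cDDGS, so in groups III and IV the added fat and cDDGS cannot be told apart. The question was which genes differed from the control diet in 1 direction whatever fat was added.

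Backfat is the subcutaneous fat of the back. In pigs, adipose tissue is the main place of fatty acid synthesis, in which acetyl units leave the mitochondria as citrate and are built into fatty acids in the cytosol, then stored as triglyceride in the lipid droplet. The tissue also holds blood vessels, resident macrophages and connective tissue, and in bulk RNA fewer cells of a type and less RNA per cell cannot be told apart.

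The gene counts summed to between 2437172 and 7979426 per pig. Of the uniquely mapped reads, 51.1 to 71.3% fell on no annotated gene. That share was 56.8 ± 2.53% (SD, n = 7) in group I and 60.9 ± 5.51% (SD, n = 16) with cDDGS (exact permutation test, two-sided, p = 0.0787, and 0.197 after Benjamini-Hochberg adjustment over 5 measures of depth and composition). It was 56.8 ± 4.0% (SD, n = 5) in group III and 62.5% and 63.0% in groups II and IV. Total gene counts did not differ beyond their spread (exact permutation p = 0.791). Adipocyte genes were abundant, with PLIN1, which coats the lipid droplet, at 1060 to 1440 CPM in group I and 741 to 1470 CPM with cDDGS. CPM are counts per 1000000 reads after normalization by the TMM method.

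In the test of edgeR by quasi-likelihood, 0 of 10749 genes (0.0%) met both limits the study set for a differentially expressed gene (DEG), more than 1.3-fold and an adjusted p below 0.05. Adjusted p-values went down to 0.0668, and before adjustment 1695 genes had p under 0.05. DESeq2 gave 163 DEGs (1.74% of the genes it tested) and limma-voom 51 (0.474%). At a looser limit of adjusted p under 0.1, 78 genes (0.726%) passed, 38 (0.354%) with higher and 40 (0.372%) with lower expression in the cDDGS arm. None of the genes named below is a DEG in edgeR, and higher or lower describes their values. Log2 fold changes are given as cDDGS minus group I.

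The 78 genes kept 1 sign in groups II, III and IV, and 58 of them, 34 higher and 24 lower, differed by more than 1.3-fold in each diet. Over all genes tested, 58.0% kept 1 sign and 5.29% passed 1.3-fold in each diet, so the 2 shares are read against those. By direction, 3111 of the 10749 genes were positive and 3120 negative in each diet, and the list counts below stand beside these. The pooled value is made of the 3 diets, and the diets share group I, so the common sign is a description. Within females and within males the difference in mean log2(CPM + 0.5) had the same sign for all 78 genes. For 43 of the 78 genes all 16 cDDGS pigs lay beyond the median of group I, and for the others at least 14 did. The 78 genes were chosen by their difference in these same pigs. Both counts are therefore descriptions, and neither was taken over all genes. In no gene of the 10749 (0.0%) were the 16 pigs and the 7 controls fully apart. Of the 78 genes, 68 are on the study's own list for the merged diets, which was drawn from these pigs and is no independent evidence. By diet, the median size of the difference on the log2 scale was 0.64 (II), 0.56 (III) and 0.69 (IV).

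**Figure D1:**
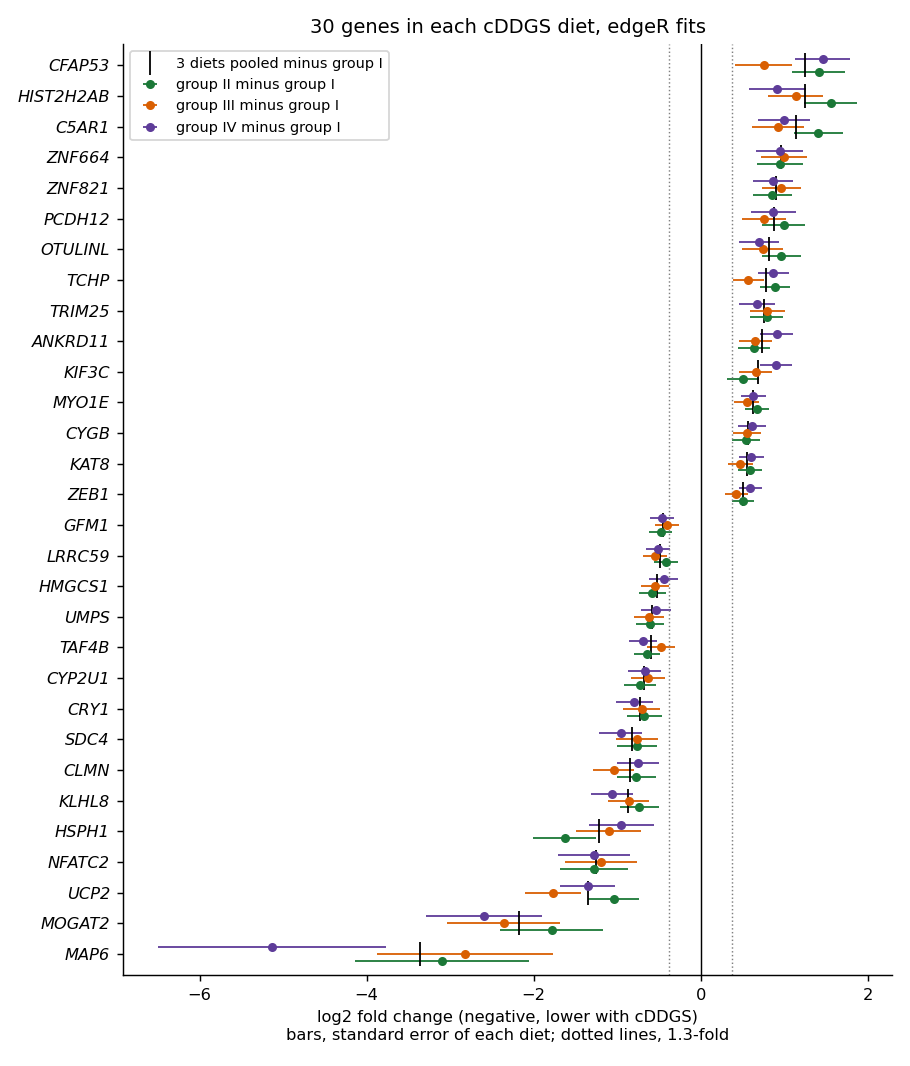
Log2 fold change (x axis) of each cDDGS diet against group I for the 30 named genes (y axis) with the smallest p-value among those beyond 1.3-fold in every diet; points and bars are the estimate and its standard error for groups II (green), III (orange) and IV (purple), and black ticks are the pooled value. The points of the 3 diets lie on the same side of 0 for every gene, from MAP6 at the bottom (pooled -3.36) to CFAP53 at the top (pooled 1.25).

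Genes of fatty acid synthesis and its carbon supply were lower with cDDGS. Of 25 identifiers tested, 23 had a negative log2 fold change, 19 of them in each diet, and the median was -0.44 against 0.01 over all genes. Before adjustment, 15 were lower and 0 higher at p under 0.05, where 7.08% and 8.69% of all genes were, and 2 were lower at adjusted p under 0.1. FASN, the fatty acid synthase, is counted on a pair of identifiers. On ENSSSCG00000023044 the 7 control pigs ranged from 1620 to 4180 CPM with a median of 2900, and the 16 cDDGS pigs from 538 to 3190 CPM with a median of 1480. The arms overlapped, and 9 of the 16 pigs lay below every control. Its log2 fold change was -0.88 (SE 0.22, edgeR adjusted p = 0.0965), with -1.01, -0.92 and -0.71 in groups II, III and IV. Pig 48 of group III, at 3190 CPM, was the highest cDDGS pig and lay above the control median. The other 4 pigs of that group had 873 to 1320 CPM. The other identifier, ENSSSCG00000029944, had -0.84 (adjusted p = 0.113).

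Other genes of the pathway were mostly negative, with differences of varying size. PDHX, a binding subunit of the pyruvate dehydrogenase complex, had a log2 fold change of -0.48 (SE 0.12, edgeR adjusted p = 0.0983), but only -0.33 in group III. SLC25A1, which carries citrate out of the mitochondrion, had -0.87 (adjusted p = 0.104) and lay between -0.92 and -0.80 in the 3 diets. The values for ACACA, the acetyl-CoA carboxylase, were -0.89, -0.81 and -0.56 in groups II, III and IV. ACLY, which splits citrate, had a pooled value of -0.94 (adjusted p = 0.264), and SCD, which desaturates the product, -0.69 (adjusted p = 0.288). By diet both were less even, with -1.57, -0.80 and -0.54 for ACLY and -1.09, -0.73 and -0.30 for SCD. The fatty acid desaturases FADS1 and FADS2 had pooled values of -0.03 and 0.11.

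Sterol synthesis and acetoacetate use were lower as well, with a median of -0.42 over 19 genes, or -0.28 with the share of reads assigned to no gene as a covariate. Of these, 16 were negative, 15 of them in each diet. At unadjusted p under 0.05, 10 were lower and 0 higher, against 7.08% and 8.69% of all genes. HMGCS1, which makes the HMG-CoA used for sterols, had a median of 60.2 CPM in group I (48.7 to 76.7) and 40.2 CPM with cDDGS (32.8 to 62.7). Its log2 fold change was -0.53 (SE 0.12, edgeR adjusted p = 0.0755), close to even over the diets at -0.58, -0.55 and -0.45. AACS, which activates acetoacetate for lipid synthesis, had medians of 220.0 and 119 CPM, and 14 of the 16 cDDGS pigs lay below every control. Its log2 fold change was -0.67 (adjusted p = 0.093). MVK, the mevalonate kinase of the sterol pathway, had -0.65 with an adjusted p-value of 0.137, on a median of 9 reads per pig.

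In triglyceride storage, 15 of 20 identifiers were negative, 14 of them in each diet, and the median was -0.24. Before adjustment 9 were lower and 3 higher at p under 0.05, against 7.08% and 8.69% of all genes. The 3 higher ones were ENSSSCG00000016063, named CAVIN2 or SDPR, at 1.74 (edgeR adjusted p = 0.127), the fatty acid carrier FABP5 at 0.70 (adjusted p = 0.144) and CAVIN2 on ENSSSCG00000026618 at 0.25 (adjusted p = 0.309). Each was positive in all 3 diets. FITM2, which partitions triglyceride into lipid droplets, had a log2 fold change of -0.52 (SE 0.14, edgeR adjusted p = 0.0983) but was uneven, with -0.79, -0.29 and -0.49 in groups II, III and IV (p among the diets 0.0368, adjusted p = 0.905). CIDEC, which enlarges lipid droplets, had -0.42 (adjusted p = 0.11), and all 16 cDDGS pigs lay below the control median of 394 CPM. LIPE, the hormone-sensitive lipase that breaks triglyceride down, was also lower at -0.45 (adjusted p = 0.136). PLIN1 had -0.11 and PPARG, the regulator of adipocyte genes, 0.29, with adjusted p-values of 0.637 and 0.494.

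The lowest p-value of all genes was that of UCP2, an inner mitochondrial membrane carrier of the uncoupling protein family. Its values were 5.49, 14.3, 3.8, 16.4, 12.5, 13.5 and 10.3 CPM in the 7 control pigs, and 2.16 to 8.24 CPM with a median of 4.08 in the 16 cDDGS pigs. All 16 lay below the control median, but control pigs 1 and 3 overlapped with them. The log2 fold change was -1.35 (SE 0.25, edgeR adjusted p = 0.0668, unadjusted exact permutation p = 0.00031), and by diet it was -1.04 (II), -1.78 (III) and -1.35 (IV). The exact p-values of single genes were not adjusted over genes. These genes were chosen by a small p in the same pigs, so their exact p-values are descriptions.

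MOGAT2, a monoacylglycerol acyltransferase, and MAP6, a microtubule-stabilizing protein, gave the largest differences with log2 fold changes of -2.18 (SE 0.46) and -3.36 (SE 0.75), both at an edgeR adjusted p of 0.0668. The difference rested on 4 of the 7 control pigs. MOGAT2 was at 33.9, 54.9, 28.7 and 40.8 CPM in control pigs 2, 5, 6 and 7, and at 2.74, 5.49 and 3.35 CPM in control pigs 1, 3 and 8. The same 4 pigs had 22.6, 46.6, 21 and 25.1 CPM of MAP6, and the other 3 had less than 1 CPM. In the cDDGS arm 12 of 16 pigs had less than 1 CPM of MAP6, and pig 19 of group II was highest for both genes with 9.83 CPM of MAP6 and 22.3 CPM of MOGAT2. The same 4 control pigs were also the highest for UCP2. MAP6 and MOGAT2 are direct neighbours in the RefSeq gene order of the pig, and whether reads of one were counted on the other was not tested. MAP6 had a median of only 2.0 reads per pig.

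**Figure D2:**
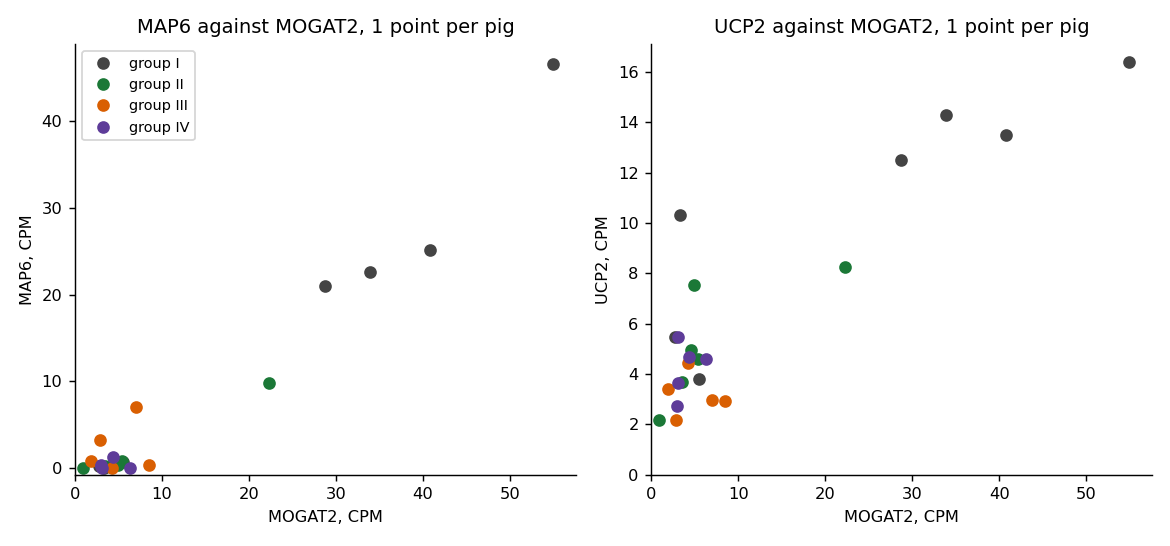
MAP6 (left) and UCP2 (right) in CPM on the y axes against MOGAT2 in CPM on the x axes, with 1 point per pig coloured by dietary group. The 4 control pigs with 28.7 to 54.9 CPM of MOGAT2 stand apart with 21 to 46.6 CPM of MAP6, while the other 3 control pigs lie among the cDDGS pigs for MAP6 and MOGAT2; for UCP2, control pig 8 at 10.3 CPM lies above every cDDGS pig.

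Nuclear genes of the respiratory chain were lower with cDDGS in part. Of 40 tested, 32 were negative, 26 of them in each diet. At unadjusted p under 0.05, 15 were lower and 0 higher, against 7.08% and 8.69% of all genes. The median of the list was -0.23. By diet the median was -0.34 (II), -0.12 (III) and -0.18 (IV). COX15, which makes heme A for cytochrome oxidase, had a log2 fold change of -0.65 (SE 0.16, edgeR adjusted p = 0.093), and UQCRQ, a subunit of complex III, -0.63 (SE 0.15, adjusted p = 0.093). For both, each diet lay between -0.75 and -0.49. NDUFS5, a subunit of complex I, had -0.74 (adjusted p = 0.0983) with -0.93, -0.44 and -0.87. With the share of reads assigned to no gene as a covariate, the median of the list was -0.07.

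Other mitochondrial and heme genes were mixed. GFM1, a mitochondrial translation elongation factor, was lower at -0.45 (SE 0.10, edgeR adjusted p = 0.0755). CYP2U1, a cytochrome P450 that hydroxylates fatty acids, had 15 to 30.3 CPM in the controls (median 23.4) and 9.11 to 21.1 CPM with cDDGS (median 14.4). Control pig 1 was lowest of its group, and 9 of the 16 cDDGS pigs lay below it. The log2 fold change was -0.68 (SE 0.14, edgeR adjusted p = 0.0668), between -0.72 and -0.63 in the 3 diets. ALAS1, the first enzyme of heme synthesis, had -0.56 (adjusted p = 0.1). CYGB, the globin cytoglobin, was higher at 0.57 (SE 0.13, adjusted p = 0.0755), with 0.54, 0.55 and 0.61. Over 14 genes of heme and cytochromes the median was -0.22, or -0.11 with the share of reads assigned to no gene as a covariate. For 11 genes of mitochondrial uncoupling and defence it was -0.11, turned to 0.02 with that covariate and was -0.07 without pig 41 of group III. SOD2 and TXN2, which remove oxidants in the mitochondrion, had -0.50 and -0.46 with adjusted p-values of 0.11 and 0.114.

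Repressors and chromatin regulators were higher with cDDGS, but 13 of the 16 identifiers in this list are on the study's list for these pigs, so its counts describe that choice. For 15 of the 16 the sign was positive in each diet, and the median was 0.53. ZEB1, a zinc finger repressor counted on a pair of identifiers, had 47 to 70.4 CPM in the controls (median 56.9) and 65.4 to 114 CPM with cDDGS (median 77.6) on ENSSSCG00000020757. Control pigs 1 at 70.4 and 3 at 62.9 CPM were the highest of their group, and 12 of the 16 cDDGS pigs lay above both. Pooled over the diets the log2 fold change was 0.51 (SE 0.11, edgeR adjusted p = 0.0668), and 0.38 on ENSSSCG00000011025 (adjusted p = 0.114).

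KAT8, which acetylates histone H4, had 11.7 to 17.5 CPM in the controls (median 15.7) and 15.3 to 28.9 CPM with cDDGS (median 21.8). All but 1 of the 16 pigs lay above every control, and the exception was pig 55 of group IV. The difference was 0.56 on the log2 scale (SE 0.12, edgeR adjusted p = 0.0668). ANKRD11, a chromatin cofactor, had 16.2 to 33.5 CPM (median 24.9) and 26.4 to 57.7 CPM (median 41.4), with 13 of 16 pigs above every control. On the log2 scale the difference was 0.73 (SE 0.16, adjusted p = 0.0668) and it reached 0.91 in group IV. The negative member was TAF4B, a subunit of the general transcription factor TFIID, with 16.9 to 23.7 CPM in the controls (median 21.1) and 7.38 to 19.4 CPM with cDDGS (median 13.9). Of the 16 cDDGS pigs, 14 lay below every control. Pooled, it had -0.60 (SE 0.12, adjusted p = 0.0668). HES1, a repressor downstream of Notch, had 0.69 (adjusted p = 0.0983), with 0.70, 0.48 and 0.86.

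**Figure D3:**
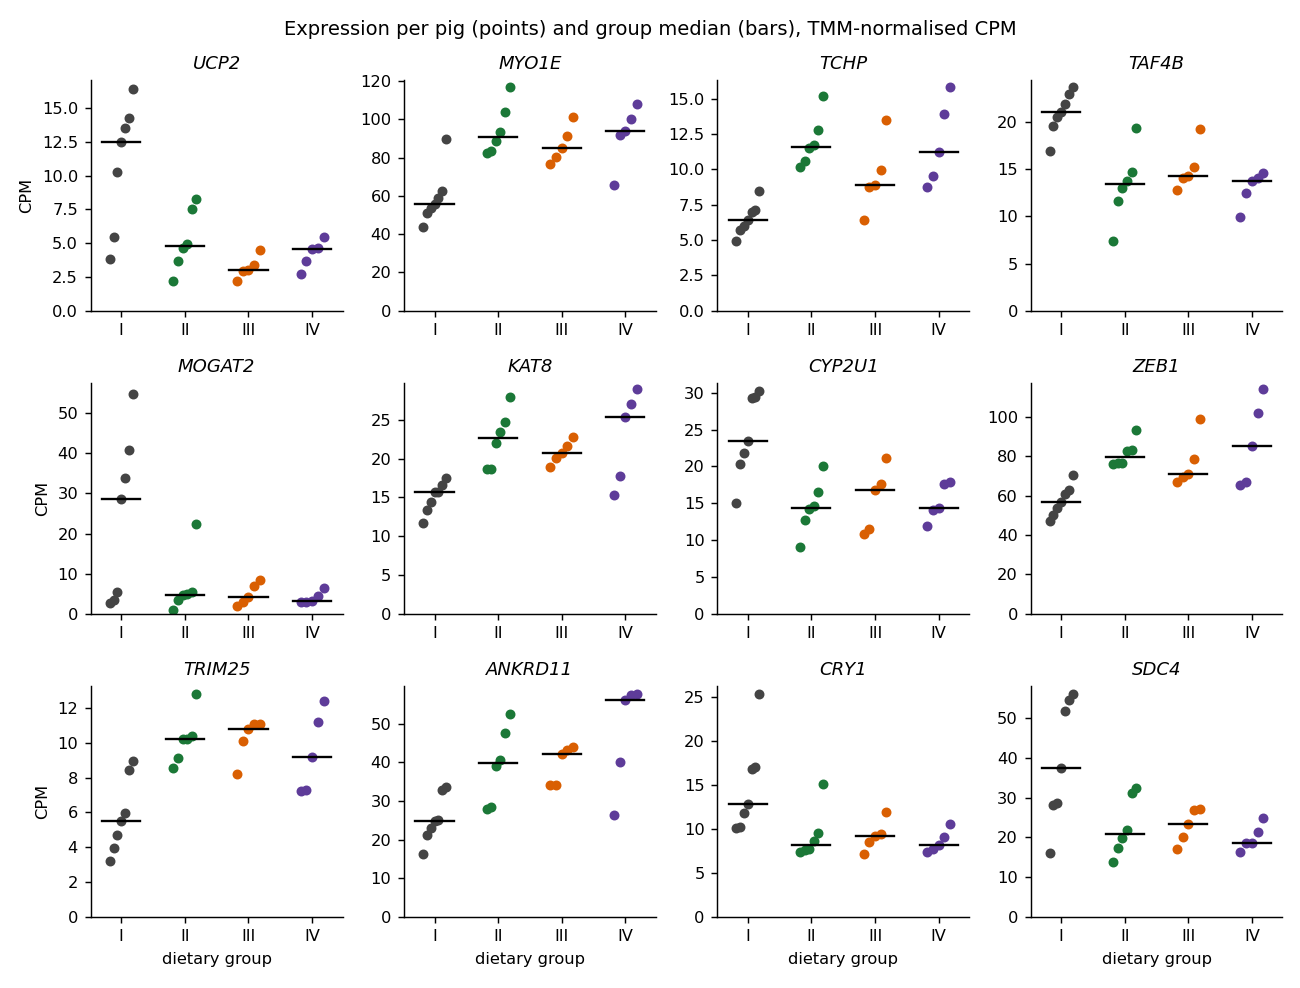
CPM (y axes, from 0) of 12 genes in each pig by dietary group (x axes), with points for pigs and black bars for group medians. UCP2, TAF4B, MOGAT2, CYP2U1, CRY1 and SDC4 were lower with cDDGS and MYO1E, TCHP, KAT8, ZEB1, TRIM25 and ANKRD11 higher, and in each panel some pigs of the arms overlap.

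Genes of the actomyosin cortex, the cilium and the centrosome were mostly higher. For the cortex list 18 of 21 genes were positive. At unadjusted p under 0.05, 14 were higher and 1 lower, against 8.69% and 7.08% of all genes. The median of the list was 0.39, but 9 of its genes are on the study's list and the median of the rest was 0.15. The gene MYO1E, a class I myosin that links membranes to actin, had 89.8, 43.5, 62.7, 55.8, 53.7, 50.8 and 58.7 CPM in the 7 control pigs and 65.4 to 117 CPM with cDDGS (median 91.4). Only control pig 1 overlapped with the cDDGS arm. MYO1E had a log2 fold change of 0.62 (SE 0.12, edgeR adjusted p = 0.0668, unadjusted exact permutation p = 6.5e-05), and without control pig 1 it was the highest of the leave-one-out values at 0.75. FNBP1L and FILIP1, which act on membrane curvature and on filamin, had 0.51 and 0.86 (adjusted p = 0.0668 and 0.0983).

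For the cilium list 24 of 29 identifiers were positive, 20 of them in each diet, and the median was 0.29. Of its identifiers 7 are on the study's list, and the median of the rest was 0.21. TCHP, a centrosomal protein that restrains cilium assembly, had 4.9 to 8.48 CPM in the controls (median 6.41) and 6.39 to 15.8 CPM with cDDGS (median 10.9). Pig 45 of group III was the 1 cDDGS pig not above every control. TCHP had a log2 fold change of 0.78 (SE 0.15, edgeR adjusted p = 0.0668), with 0.89, 0.57 and 0.86 in groups II, III and IV. CFAP53, needed for cilium motility, and the kinesin KIF3C had 1.25 and 0.69 (adjusted p = 0.0755 and 0.0848). For CFAP53 the controls reached 2.64 CPM at most, and the values rest on a median of 15.0 reads per pig.

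Matrix, heat shock and clock genes held single genes that were lower. Of the matrix genes, SDC4, a heparan sulfate proteoglycan of the cell surface, had 28.7, 37.5, 28.3, 51.9, 56.1, 16 and 54.6 CPM in the controls and 13.8 to 32.5 CPM with cDDGS (median 20.8). All 16 pigs lay below the control median, but control pig 7 was among the lowest of all pigs. For SDC4 the log2 fold change was -0.82 (SE 0.18, edgeR adjusted p = 0.0668). Of the 23 matrix identifiers 19 were negative with a median of -0.16, or -0.10 without control pig 1 and -0.24 with the share of reads assigned to no gene as a covariate. Only 12 of the 19 were negative in each diet, and the median was -0.02 (II), -0.35 (III) and -0.28 (IV). P4HA1 and COL15A1 were among the negative ones at -0.31 and -0.52 (adjusted p = 0.0929 and 0.0983; COL15A1 on ENSSSCG00000005380 had -0.11), while SPARCL1 was higher at 0.80 (adjusted p = 0.0983). The fibrillar collagens COL1A2 and COL3A1 had -0.31 and -0.16 with adjusted p-values of 0.626 and 0.7.

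HSPH1, a chaperone of the HSP110 family, had a log2 fold change of -1.22 (SE 0.29, edgeR adjusted p = 0.0847). Control values ranged from 33.7 to 251 CPM, and the cDDGS pigs, at 34.2 to 138 CPM, stayed within them. Of 19 heat shock and chaperone genes 15 were negative, each of the 15 in all 3 diets, with a median of -0.34, or -0.21 without control pig 5. CRY1, a repressor of the circadian clock, had 10.1 to 25.4 CPM in the controls (median 12.8) and 7.12 to 15.1 CPM with cDDGS (median 8.6). CRY1 had a log2 fold change of -0.72 (SE 0.16, edgeR adjusted p = 0.0668), with 13 of 16 pigs below every control. The median of the 12 clock genes was -0.01, or 0.03 without control pig 7. CRY1 varies over the day, and the times of sampling are not given in the sources used here.

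Interferon response and speckled protein genes were higher in part. TRIM25, a ubiquitin ligase of antiviral sensing, had 3.23 to 8.96 CPM in the controls (median 5.51) and 7.25 to 12.8 CPM with cDDGS (median 10.2). Control pigs 1 and 3, at 8.96 and 8.45 CPM, overlapped with the cDDGS arm. For TRIM25 the log2 fold change was 0.75 (SE 0.16, edgeR adjusted p = 0.0668), between 0.67 and 0.79 in the 3 diets. SP110 and IRF2, a nuclear body protein and an interferon regulatory factor, had 0.63 and 0.40 (adjusted p = 0.0937 and 0.0983). IRF1 and STAT2 were negative at -0.50 and -0.27 (adjusted p = 0.134 and 0.149). Over the 12 genes 9 were positive and the median was 0.47, or 0.24 over those not on the study's list.

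Markers of resident macrophages were higher with cDDGS, with the largest median in group II. Of 17 markers 15 were positive. At unadjusted p under 0.05, 10 were higher and 1 lower, against 8.69% and 7.08% of all genes. The median of the markers was 0.75. By diet the median was 1.04 (II), 0.20 (III) and 0.59 (IV). Their summed level was 139 to 441 CPM in the controls and 229 to 781 CPM with cDDGS. C5AR1, the receptor of the complement fragment C5a, had 11.3, 6.03, 5.7, 4.71, 2.02, 7.32 and 2.4 CPM in the 7 controls and 6.81 to 23.8 CPM with cDDGS (median 12.1). All 16 pigs lay above the control median, and control pigs 1 and 7 overlapped with them. C5AR1 had a log2 fold change of 1.14 (SE 0.26, edgeR adjusted p = 0.0755), with 1.41, 0.92 and 0.99. C1QA, a chain of complement C1q, had 1.12 (adjusted p = 0.108). MS4A7 went the other way, at -1.35 (SE 0.34, adjusted p = 0.0983) and between -1.46 and -1.17 in the 3 diets, on a median of 14.0 reads per pig. FOLR2, SIGLEC1 and MSR1 had -0.16, 0.17 and 0.05, and CSF1R, MARCO and TIMD4 had too few reads to be tested. With the share of reads assigned to no gene as a covariate the median of the list was 0.51.

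Markers of other cell types were less even. Of 12 lymphocyte and pan-leukocyte markers 11 were positive with a median of 0.59, but the median in group III was 0.09, and with the share of reads assigned to no gene as a covariate the pooled median was 0.35. RGS1, a regulator of G protein signalling in leukocytes, had 1.18 (SE 0.30, edgeR adjusted p = 0.0983) and was above 1 in each diet. Of 16 endothelial markers 15 were positive, 13 of them in each diet, and the median was 0.25. PCDH12, a protocadherin of endothelial junctions, had 0.88 (SE 0.21, adjusted p = 0.0929), and PECAM1, a general endothelial marker, 0.24 (adjusted p = 0.395). For the 9 smooth muscle and pericyte markers the median was -0.01, or 0.22 without control pig 8. For the 7 adipocyte markers it was -0.08, or -0.04 without pig 19 of group II and -0.03 with the covariate. For the 3 mast cell markers it was 0.11, or 0.24 without control pig 7, 0.07 without control pig 2 and 0.02 with the covariate. Among them MS4A2, a chain of the IgE receptor, had 1.035 (SE 0.29, edgeR adjusted p = 0.114). By diet MS4A2 had 1.31, 0.78 and 0.90 in groups II, III and IV. KIT and GATA2 had pooled values of 0.10 and 0.11, and HDC, FCER1A and HPGDS had too few reads to be tested. For the 3 keratinocyte markers the median was 0.49, or 0.25 without pig 17 of group II. Skeletal muscle markers ranged from 1.33 to 1160 CPM in sum in the controls and from 2.93 to 1910 CPM with cDDGS, with 0 of 4 past unadjusted p under 0.05.

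Genes typical of liver had the largest median of the 22 lists, 1.75, and all 18 identifiers tested were positive in each diet. Their summed level was 112 to 874 CPM in the controls and 116 to 6790 CPM with cDDGS, so the arms overlapped. APOA1, APOA2 and ENSSSCG00000011193, 1 of a pair of BTD identifiers, had too few reads to be tested. The other, ENSSSCG00000023945, had the largest log2 fold change of the list at 3.01 (SE 0.92, edgeR adjusted p = 0.133), uneven over the diets at 1.17, 3.30 and 3.69. At unadjusted p under 0.05, 15 of the 18 were higher, against 8.69% of all genes, and 1 reached adjusted p under 0.1. That gene was APOA4, an apolipoprotein of gut and liver, with 0 to 3.59 CPM in the controls (median 0.566) and 0 to 20.4 CPM with cDDGS (median 4.76). APOA4 had a log2 fold change of 2.59 (SE 0.67, edgeR adjusted p = 0.0983), on a median of 14.0 reads per pig. ALB, albumin, ran from 3.29 to 686 CPM in the controls and from 4.93 to 5560 CPM with cDDGS, where pig 17 of group II was highest and the next pig had 1690 CPM. Without that pig the median of the list was 1.23. Where the RNA of these genes came from was not tested.

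**Figure D4:**
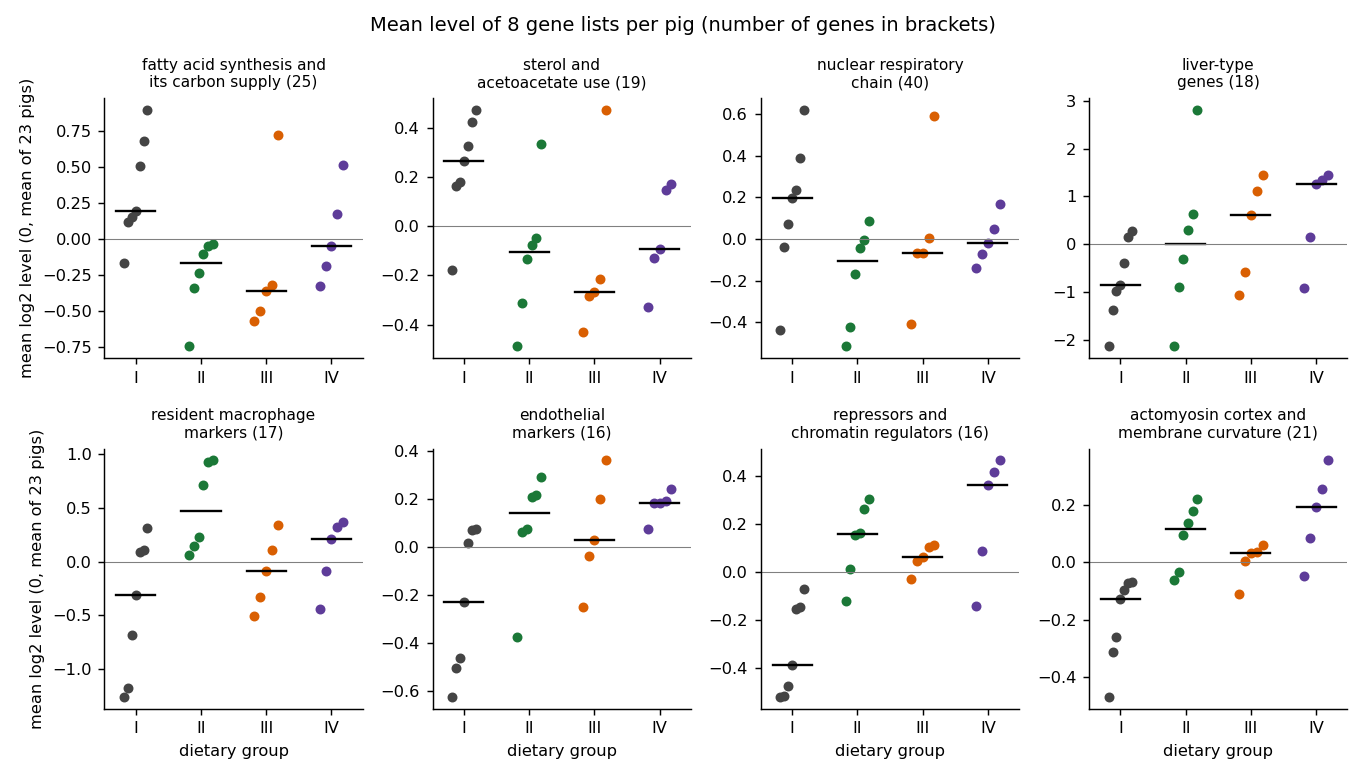
Mean log2 level of 8 gene lists per pig (y axes, 0 is the mean of the 23 pigs) by dietary group (x axes), with points for pigs, black bars for group medians and the number of genes in brackets. The list levels of the chromatin and cortex genes lay above every control in 14 and 15 of the 16 cDDGS pigs, and those of fatty acid synthesis lay below every control in 9. Of the chromatin and cortex identifiers, 13 of 16 and 9 of 21 are on the study's list from these pigs, so their levels describe that choice. The median log2 fold change of the rest was 0.26 and 0.15.

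Among the leading genes outside these lists, KLHL8, an adaptor of a ubiquitin ligase, had 19.4 to 43.2 CPM in the controls and 7.88 to 22.6 CPM with cDDGS, with a log2 fold change of -0.87 (SE 0.18, edgeR adjusted p = 0.0668). CLMN, a calponin-domain protein, had -0.85 (SE 0.18), and UMPS, which makes uridine monophosphate, -0.59 (SE 0.13). LRRC59, a ribosome-binding protein of the endoplasmic reticulum, had -0.49 (SE 0.11). ZNF821, a zinc finger protein, had 1.21 to 2.56 CPM in the controls and 2.30 to 5.11 CPM with cDDGS, 15 of 16 pigs above every control, on a median of 12 reads per pig. ZNF821 had a log2 fold change of 0.89 (SE 0.18), and its exact permutation p of 8.2e-06 was the smallest of the 78 genes. That p is unadjusted, and the 78 genes were chosen by a small p in these same pigs. The same edgeR adjusted p, 0.0668, held for KLHL8, CLMN, UMPS, LRRC59 and ZNF821.

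NFATC2, a transcription factor of the calcineurin pathway, had -1.25 (SE 0.30, edgeR adjusted p = 0.0847), where control pig 8 at 219 CPM stood above the other 6 controls at 22.4 to 97.9 CPM. Without that pig the log2 fold change was -0.77. HIST2H2AB, a histone H2A gene, and the zinc finger gene ZNF664 were higher at 1.25 and 0.96 (adjusted p = 0.0755 for both), and so was OTULINL, a protein related to a deubiquitinase, at 0.81 (adjusted p = 0.0884). Of the genes with no symbol, ENSSSCG00000015688 had 1.09 and ENSSSCG00000011466 -0.37 (adjusted p = 0.0983 and 0.093).

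Differences carried by 1 diet were set apart by leaving out each diet in turn. A gene counted as carried where the unadjusted p without that diet was 0.05 or above, or where the log2 fold change shrank by more than 1.5 times. Of the 78 genes, 76 could be fitted without each of the 3 diets. None of these 76 was carried by 1 diet, and their p stayed under 0.05 in each such fit. The 78 genes were chosen by a small pooled p in the same pigs, so few could have failed this rule, and the count is a description. The other 2, MAP6 and ENSSSCG00000015688, fell under the count filter without group II, and MAP6 also without group III, so they could not be classed. Of the 1695 genes with an unadjusted p under 0.05, 241 were carried by group II, 66 by group III and 202 by group IV, and 395 by more than 1 diet. Among the 154 tested genes of the study's list for the merged diets, 1 was carried by a single diet. It was SLA-1, a class I histocompatibility gene. Its values were 13.9 to 47.1 CPM in the controls (median 33.8) and 48.3, 105, 150, 95.1 and 83.1 CPM in the 5 pigs of group III, all above the controls. In group II they were 22.4 to 77 CPM and in group IV 67.4, 50.8, 40.1, 110 and 39.2 CPM. SLA-1 had log2 fold changes of 0.39, 1.49 and 0.83 in groups II, III and IV, 0.95 pooled (SE 0.30, edgeR adjusted p = 0.136) and 0.61 without group III. Class I genes are near-identical copies, so reads can be lost or split among them.

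Group III was the diet nearest to group I for 40 of the 78 genes, group II for 23 and group IV for 15. GIMAP4, a GTPase of lymphocytes, and NCOA7, a nuclear receptor coactivator, were named after their values were seen, since their difference was near absent in group III. GIMAP4 had log2 fold changes of 1.20, 0.03 and 1.04 in groups II, III and IV (p among the 3 diets 0.000833, edgeR adjusted p = 0.553). NCOA7 had 0.59, 0.17 and 0.48 (p among the diets 0.0136, adjusted p = 0.905). Over the 16 cDDGS pigs, 0 of 10617 genes differed among the diets at adjusted p under 0.05 in edgeR, and 580 (5.46%) did at unadjusted p under 0.05. DESeq2's likelihood ratio test called 16. The smallest adjusted p in edgeR was 0.0787.

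The number of calls changed with single pigs. Leaving out 1 pig at a time, the number of genes with adjusted p under 0.1 ranged from 0 to 286. It was 0 without control pig 2, 5, 6 or 8 or without pig 49 of group IV, and 286 without control pig 1 and 269 without control pig 3. In the 5 fits with 0 genes the smallest edgeR adjusted p lay between 0.105 (without control pig 8) and 0.232 (without control pig 2). Over all leave-one-out fits 1175 to 1835 genes had an unadjusted p under 0.05. With the share of reads assigned to no gene as a covariate, 2 genes had an adjusted p under 0.1, UCP2 and APOA4. The sign of all 78 genes stayed in that fit, 63 remained beyond 1.3-fold, and the median ratio of the log2 fold change with the covariate to that without was 0.892.

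**Figure D5:**
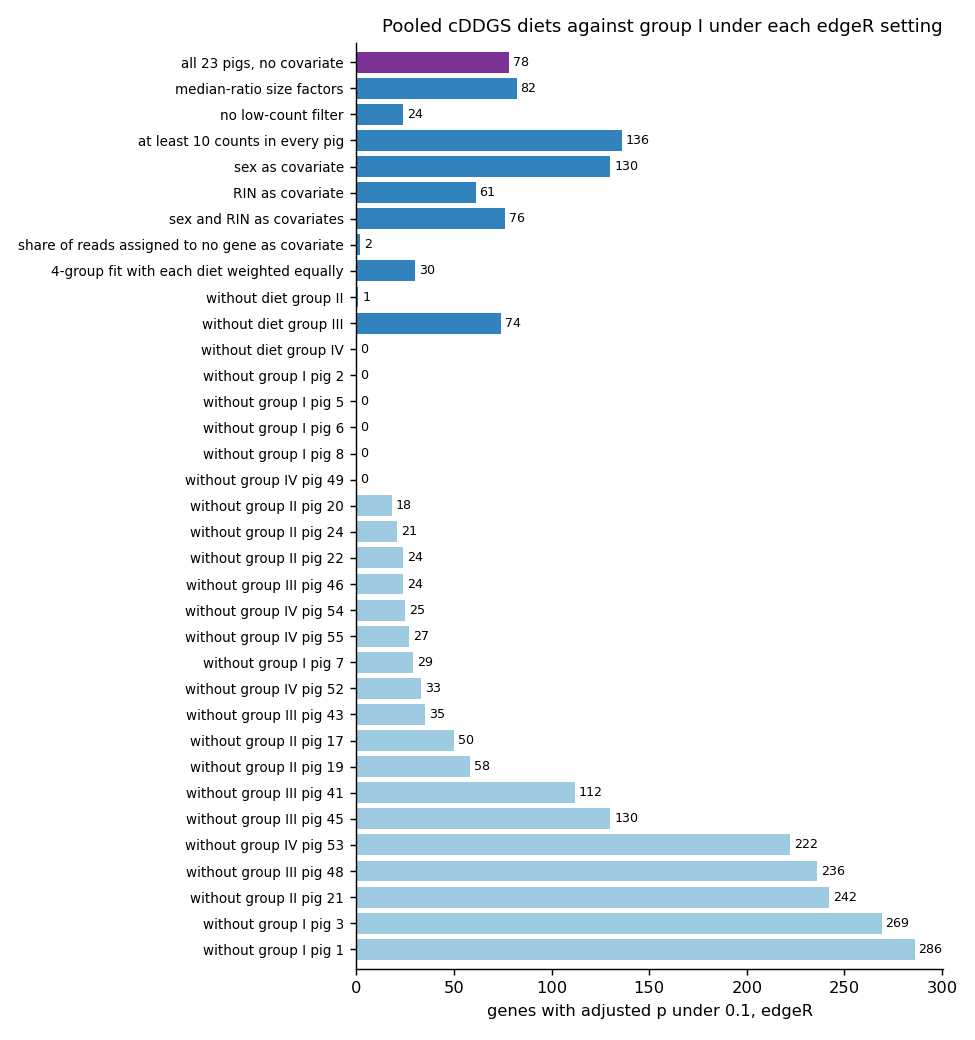
Number of genes with adjusted p under 0.1 (x axis, from 0) in edgeR under each setting (y axis); the purple bar is all 23 pigs with no covariate, blue bars are other settings and light blue bars leave out 1 pig. The number is 78 with all pigs, 2 with the share of reads assigned to no gene as covariate, and 286 without control pig 1.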

How the data were processed

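Total RNA of backfat was made into stranded libraries, and the authors mapped the reads with TopHat and counted them per gene with HTSeq, per the labels and the study's methods. The deposited values are raw read counts, whole numbers for 25322 Ensembl identifiers and 5 summary rows per pig, which were left out of the tests. The study names Sus scrofa 11.1 with annotation 87 as reference, and no coordinates are given here. Reads that map to several places were not counted.

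Symbols came from a reference table of gene names (11804 identifiers) and else from the study's tables (83 more). Of the identifiers, 11 carry conflicting names. Neighbouring genes were read from the RefSeq order of the pig.

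Counts were analysed in R 4.3.3 with edgeR 4.0.16 (TMM, filterByExpr, glmQLFit and glmQLFTest) with Benjamini-Hochberg adjustment over all genes tested, group I against the merged cDDGS groups. Diet values came from a 4-group fit. DESeq2 1.42.0 and limma 3.58.1 (voom with quality weights), other size factors, filters and covariates, and leaving out diets or pigs were alternatives. Single genes were compared by exact permutation over 245157 regroupings of the pigs, two-sided, on log2(CPM + 0.5). The count tests were tested on simulated data with no spread between the diets, in 2 runs. With 200 genes changed by 0.6 on the log2 scale, edgeR recovered 39.5% at the DEG limits, DESeq2 47.0% and limma-voom 38.75%. Of the genes called, 4.0%, 10.6% and 2.6% were false in that order. Counts of the closest of 56 same-group pairs differed with a chi-square of 5.42 per degree of freedom, so each pig counted as 1 sample.

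The comparison, the adjusted p limit of 0.1 and the 22 gene lists were chosen with earlier results of these data known. The genes named are, by rule, the 30 with the smallest p among those beyond 1.3-fold in each diet, those carried by 1 diet, up to 4 per list and up to 2 unnamed identifiers in each direction. Other genes named, among them ACLY, SCD, ACACA, FADS1, FADS2 and further markers, were added for their place in the list. Read depth limits the genes with few reads.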

Additional observations from a re-analysis of the deposited data

Results flagged for a closer look

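Single pigs far from the rest of their own group were looked for in 104 groups of values (21 identifiers shown pig by pig and 5 library measures, in each dietary group). A pig was listed where the gap to its nearest neighbour took up more of the group's range than Dixon's 95% limit allows. Chance lists about 1 in 20 groups, and 11 were listed.

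Pig 19 of group II was listed 4 times. It was highest of its group for MOGAT2 (22.3 CPM, the other 5 pigs 0.868 to 5.37), for MAP6 (9.83 CPM, the others up to 0.768) and for GIMAP4 (66.2 CPM, the others 22.6 to 36.9), and lowest for FASN on ENSSSCG00000023044 (538 CPM, the others 1390 to 1830). Pig 48 of group III was highest for both FASN identifiers, with 3190 CPM against 873 to 1320 and 8430 CPM against 2070 to 3210. In group I, pig 1 was highest for MYO1E at 89.8 CPM and pig 8 for NFATC2 at 219 CPM. Pig 21 of group II was highest for CRY1 at 15.1 CPM, and pig 53 of group IV for MAP6 at 1.29 CPM. Pig 17 of group II had 5560 CPM of ALB, where the other 5 pigs had 4.93 to 462 CPM.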

How the results depend on the processing

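The number of DEGs, 0 in edgeR, was 163 with DESeq2, 51 with limma-voom, 2 with no low-count filter, 1 with sex and RNA integrity as covariates and 1 in the 4-group fit with equal weight per diet. The number of genes with adjusted p under 0.1, 78 in edgeR, was 446 with DESeq2, 405 with limma-voom, 24 with no filter, 136 with at least 10 counts in every pig, 130 with sex as covariate, 2 with the share of reads assigned to no gene as covariate, 30 with equal weight per diet, 1 without group II and 0 without group IV. With RNA integrity as covariate, 61 genes had an adjusted p under 0.1, of which 18 were higher with cDDGS. With sex and RNA integrity as covariates 76 did, of which 25 were higher. In the main fit 38 of the 78 were higher. The cause of these moves was not tested. Leaving out each pig gave 0 to 43 DEGs and 0 to 286 genes with adjusted p under 0.1. DEGs numbered 43, 25 and 2 without control pigs 1, 3 and 7, 39 and 2 without pigs 21 and 19 of group II, 28 and 1 without pigs 48 and 45 of group III, and 29 without pig 53 of group IV. Genes that kept 1 direction in each diet numbered 58 at 1.3-fold, 78 by sign alone and 31 at 1.5-fold. The difference among the diets, 0 genes in edgeR, was 16 with DESeq2 and 0 to 1 without single pigs. Over the 113 named genes with unadjusted p under 0.05 in the main fit, 0 of 4024 fold changes reversed in the other settings. The settings reuse the same pigs and the genes were chosen by their p, so few reversals were possible. No paired analysis was possible because the groups share no pig numbers.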
